A study of Rattus norvegicus with 10 samples.

Results

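The insulin-like growth factor (IGF) system was described here by 10 genes in the prefrontal cortex of individual rats. They were the ligands Igf1 and Igf2, the receptors Igf1r, Igf2r and Insr, and the binding proteins Igfbp2, Igfbp3, Igfbp4, Igfbp5 and Igfbp6. Every probe set annotated with exactly 1 of these symbols was taken, which gave 24 of the array's 31042 probe sets other than controls. A probe set is a group of short array probes that are read together as 1 value, and it need not report a single transcript. Of the 24 probe sets, 14 from 8 genes were among the 15521 with the higher mean values, a mean log2 value of at least 3.99, and these are called measured below. The other 10 lay under that limit, and Igfbp3 and Igfbp4 had no probe set above it.

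The study hybridised total RNA from 10 male Lewis rats, an inbred strain, to 1 array each. The rats weighed 200 to 250 g, were housed singly and received no treatment, so there was 1 group and no control group, and the age was not given. Each rat carried scores for sugar feeding, prepulse inhibition (the reduction of a startle response by a weaker preceding sound), locomotion and acoustic startle, and 7 rats also carried a plus maze score. The tissue was frontal cortex (Fr1 and Fr2) rostral of 4.0 mm from bregma, free of olfactory bulb, taken 6 days after the last test. The question was how mRNA levels in this tissue relate to behaviour among animals of 1 strain.

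IGF1 and IGF2 are secreted peptides that act through the IGF1 receptor, a tyrosine kinase, and IGF2 also through the insulin receptor. The IGF2 receptor, which also binds mannose 6-phosphate, carries IGF2 to lysosomes, and the IGF binding proteins hold the ligands in extracellular fluid and set how much reaches the receptors. In the adult rodent brain, Igf2 transcripts are known mainly from the leptomeninges, the choroid plexus and blood vessels, and Igfbp2 transcripts are known from the leptomeninges and choroid plexus and from astrocytes.

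Array medians lay between 3.91 and 4.02 on the log2 scale. The tissue label was checked against markers: 7 of 8 excitatory neuron markers and all 8 astrocyte markers were measured, and 4 of 5 olfactory bulb markers were below the filter. Of 8 striatal projection neuron markers, 6 were measured as well, so these counts do not separate frontal cortex from striatum. Marker scores, each the mean log2 difference from the average rat over the measured markers of a list, set some rats apart. The score for leptomeninges and fibroblasts was 1.00 in rat 9 and 0.73 in rat 3, against a median of -0.11. The score for striatal projection neurons was 1.78 in rat 7, 1.07 in rat 4 and 0.56 in rat 10, against a median of -0.36. Results are therefore also given without rats 3 and 9, or without rats 4, 7 and 10, where that changed a call. In tissue RNA, more cells of a type and more RNA per cell cannot be told apart.

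The promoter sequences of Igf2, Igfbp2 and Igfbp5 are shown first, because Igf2 and Igfbp2 varied together across rats, whereas Igfbp5, the chromosomal neighbour of Igfbp2, had no adjusted p under 0.05 with either. Each is the 250 bases before a gene start in RefSeq (assembly GRCr8), 5′ to 3′ on the strand of the gene, with each GC box (GGGCGG or its complement CCGCCC) in capitals. The windows are chr1:207250476-207250725 and chr1:207253981-207254230 on the minus strand for 2 starts of Igf2, chr9:81864561-81864810 on the plus strand for Igfbp2, and chr9:81914188-81914437 on the minus strand for Igfbp5.
Igf2, first window: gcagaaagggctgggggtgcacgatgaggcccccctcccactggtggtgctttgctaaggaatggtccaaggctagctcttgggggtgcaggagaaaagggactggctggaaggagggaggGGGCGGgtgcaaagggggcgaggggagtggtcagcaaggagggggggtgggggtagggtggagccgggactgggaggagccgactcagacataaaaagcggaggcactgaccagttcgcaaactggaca
Igf2, second window: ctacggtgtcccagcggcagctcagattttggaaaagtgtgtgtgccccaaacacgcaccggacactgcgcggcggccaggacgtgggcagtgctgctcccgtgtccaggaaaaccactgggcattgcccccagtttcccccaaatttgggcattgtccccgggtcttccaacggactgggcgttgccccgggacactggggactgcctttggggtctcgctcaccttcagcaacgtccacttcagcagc
Igfbp2: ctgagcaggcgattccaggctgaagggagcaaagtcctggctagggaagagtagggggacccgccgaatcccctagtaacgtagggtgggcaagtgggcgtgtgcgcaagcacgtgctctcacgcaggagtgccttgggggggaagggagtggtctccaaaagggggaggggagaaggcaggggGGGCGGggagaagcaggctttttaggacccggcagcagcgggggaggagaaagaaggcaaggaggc
Igfbp5: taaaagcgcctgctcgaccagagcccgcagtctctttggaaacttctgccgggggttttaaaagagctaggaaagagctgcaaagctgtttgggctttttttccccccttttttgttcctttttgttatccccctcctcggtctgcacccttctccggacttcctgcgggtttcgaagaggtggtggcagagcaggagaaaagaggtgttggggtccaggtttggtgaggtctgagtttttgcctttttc
The first Igf2 window held 1 GC box and the Igfbp2 window held 1, while the second Igf2 window and the Igfbp5 window held none. A GC box is the short motif bound by Sp family factors. Among the 11 windows of the 10 genes, 4 held a GC box: those of Igf1r and Igf2r had it as well. The share over all 33469 promoter windows of this length was 30.5%. An E-box CACGTG, its own complement, lay in the Igfbp2, Igf1r and Igf2r windows and in 5.59% of all windows. The letters TATAAA, or TTTATA on the other strand, lay in the Igfbp4 window alone among the members and in 12.9% of all windows. The match of letters is a description of these windows and not of a bound site.

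Igf2 was the member that varied most between rats. Its measured probe set (1367571_a_at) had a lowest log2 value of 8.73 in rat 8, a median of 9.66 and a highest of 11.20 in rat 9. The span was 5.55-fold, and rat 3 came second at 10.78, ahead of rat 2 at 10.13. The SD over the 10 rats was 0.76 on the log2 scale, larger than in 99.2% of measured probe sets, whose median SD was 0.13. Without rats 3 and 9 the span was 2.65-fold. The other 3 Igf2 probe sets stayed below the filter with means between 1.15 and 3.05, and their spans reached at most 1.17-fold.

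Igf1, the ligand whose circulating form is made largely by the liver under growth hormone, gave a level close to the filter. Its measured probe set (1382599_at) ran from 3.96 in rat 10 through a median of 4.08 to 4.17 in rat 7. That span of 1.16-fold is small, and the SD of 0.07 was larger than in 12.1% of measured probe sets. The other 2 Igf1 probe sets were below the filter.

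The receptors varied less than Igf2 and more than Igf1, with spans from 1.26-fold to 1.90-fold. The main Igf1r probe set (1392492_at, the one of higher mean) ran from 9.92 in rat 4 through a median of 10.11 to 10.30 in rat 1, a 1.30-fold span. The other Igf1r probe set (1368123_at) ran from 8.42 in rat 2 through 8.75 to 9.35 in rat 3, a 1.90-fold span. These probe sets of the same gene did not order the rats alike, with r = 0.22 over the 10 rats (permutation p = 0.542, adjusted p = 0.976 over 9 such pairs).

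Igf2r was highest in rat 2 by both of its probe sets. The main one (1386872_at) ran from 9.02 in rat 8 through a median of 9.20 to 9.52 in rat 2, with rat 1 second at 9.30. The other (1367636_at) ran from 7.19 in rat 10 through 7.21 to 7.52 in rat 2, and its values in 8 of the 10 rats lay between 7.19 and 7.22. Their correlation was r = 0.63 (permutation p = 0.0898, adjusted p = 0.404), and it was 0.17 without rats 2 and 8.

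Insr, the insulin receptor, was measured by 1 probe set (1392043_at). It ran from 5.58 in rat 2 through a median of 5.76 to 6.11 in rat 4, a 1.45-fold span. Rat 4 stood apart, since the next rat, rat 10, had 5.80.

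Among the binding proteins, Igfbp2 varied most in its leading probe set. Igfbp2 (1367648_at) had a lowest log2 value of 7.96 in rat 8, a median of 8.79 and a highest of 9.89 in rat 9. Rat 3 came second at 9.62, and the 3 highest and the 2 lowest rats were the same animals as for Igf2. The SD was 0.55, larger than in 98.0% of measured probe sets, and the span was 3.82-fold, or 1.97-fold without rats 3 and 9.

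Igfbp5, which also binds extracellular matrix, had 4 measured probe sets. The main one (1370960_at) ran from 9.38 in rat 5 through 9.58 to 9.82 in rat 9, a 1.35-fold span. A second (1387348_at) ran from 4.60 in rat 2 through 4.90 to 6.11 in rat 7, with rat 9 at 5.78, a 2.85-fold span. Both of these were high in rat 9, and their correlation was r = 0.69 (permutation p = 0.0263, adjusted p = 0.236) and rho = 0.77 (permutation p = 0.0124, adjusted p = 0.0559). Another (1397830_at) was highest in rat 10, at 5.57, and lowest in rat 8, at 4.74. The last (1396152_s_at) ran from 4.45 in rat 3 to 4.77 in rat 6. These latter probe sets share a source sequence in the platform annotation. They had r = 0.29 and rho = 0.77 with each other (permutation p = 0.0124 for rho, adjusted p = 0.0559). Across these 2 pairs of probe sets, the other 4 pairings had r between -0.13 and 0.04.

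Igfbp6, a binding protein with a preference for IGF2, had 2 measured probe sets. The main one (1372168_s_at) ran from 7.18 in rat 7 through 7.47 to 7.65 in rat 3, and rat 9 was close behind at 7.64. The other (1387625_at) ran from 6.65 in rat 1 through 6.82 to 7.30 in rat 9, with rat 4 at 7.28 and no other rat above 6.93. Their correlation was r = 0.39 (permutation p = 0.273, adjusted p = 0.819). Of the 9 pairs of probe sets of the same gene, none passed an adjusted p of 0.05 by r or by rho, so the values of 1 probe set were not taken to stand for another.

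**Figure D1:**
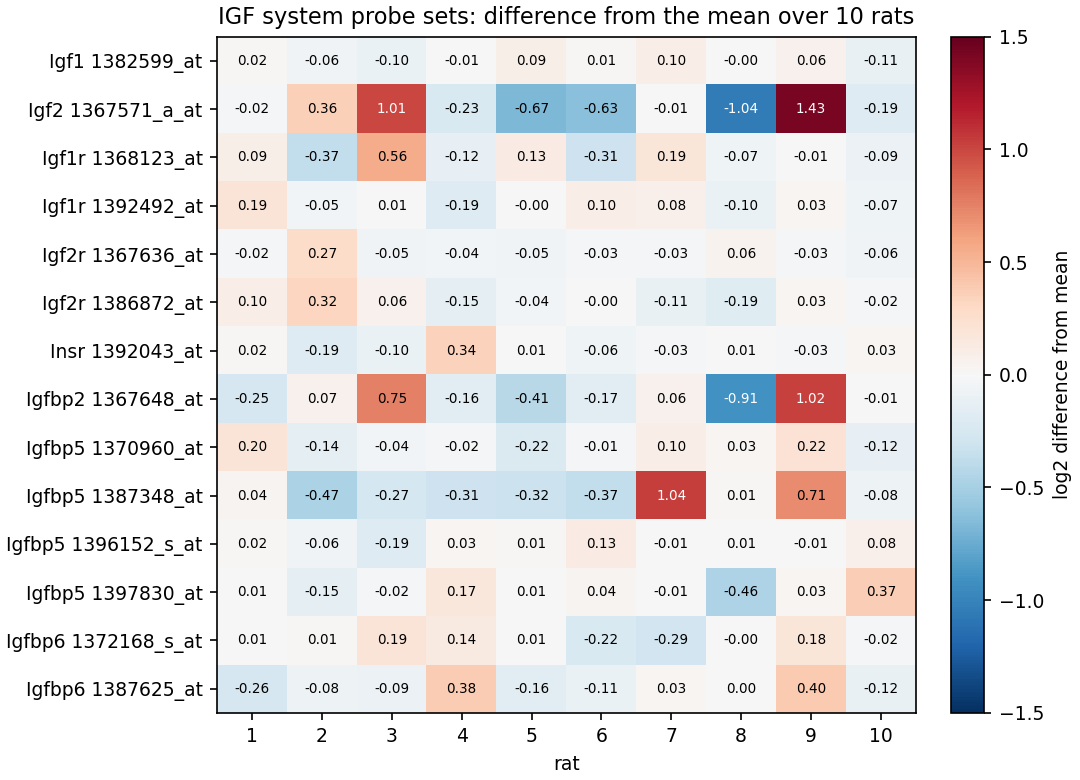
Log2 difference of each of the 14 measured probe sets from its own mean over 10 rats; columns are rats, rows are probe sets, and red is higher and blue lower. Igf2 and Igfbp2 are highest in rats 9 and 3 and lowest in rat 8, and Igfbp5 1387348_at is highest in rat 7.

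**Figure D2:**
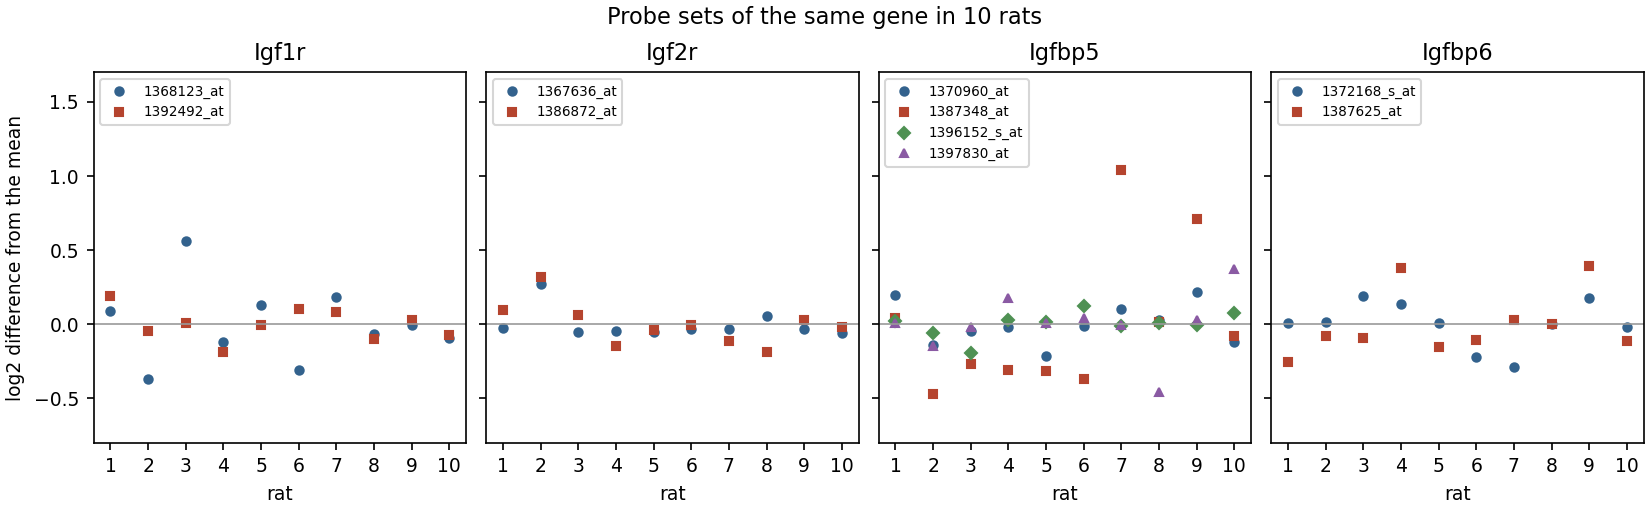
Log2 difference from the mean over rats (vertical axis) by rat (horizontal axis) for the measured probe sets of Igf1r, Igf2r, Igfbp5 and Igfbp6, 1 marker shape and colour per probe set. Rat 2 is highest by both Igf2r probe sets, and for Igfbp5 rat 7 is highest by 1387348_at and rat 10 by 1397830_at.

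Igfbp3 and Igfbp4 were not among the measured genes. The 2 Igfbp3 probe sets had means of 2.45 and 2.26, and the Igfbp4 probe set ran from 3.45 to 3.87 with rat 3 highest. Over the 10 member probe sets below the filter, spans ran from 1.03-fold to 1.34-fold, and nothing is drawn from their order.

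Igf2 and Igfbp2 rose and fell together across the 10 rats. Their correlation was r = 0.96 (permutation p = 2e-05, adjusted p = 0.00056) and rho = 0.93 (permutation adjusted p = 0.00812). This was the 1 pair of 28 pairs of member genes with an adjusted p under 0.05. Without rats 9 and 3, the rats farthest from the Igf2 median, r was 0.85 over 8 rats (exact permutation p = 0.0054, adjusted p = 0.152). The relation thus kept its direction and was no longer past the adjusted threshold without those rats.

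None of the other 27 pairs passed, and their smallest adjusted p was 0.659. The most negative was Igf2r with Insr, with r = -0.65 (permutation p = 0.0672), and rat 2 had the highest Igf2r and the lowest Insr. Igf2 with Igfbp6 had r = 0.53 with all rats and 0.01 without rats 9 and 3. Igf2 with its clearance receptor Igf2r had r = 0.49 and rho = 0.66 (permutation p = 0.0441 for rho, adjusted p = 0.446). Igfbp2 with its neighbour Igfbp5 had r = 0.29 (permutation adjusted p = 0.659).

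The same rats were high for markers of leptomeninges and fibroblasts. The 8 member genes with a measured probe set were set against 9 marker scores, the hybridisation spike-in level and the 3′ minus 5′ difference of control transcripts, 88 pairs in all, and 2 had an adjusted p under 0.05. Igf2 had r = 0.98 with the leptomeningeal and fibroblast score (permutation p = 2e-05, adjusted p = 0.00176). Igfbp2 had r = 0.93 with it (permutation p = 0.00024, adjusted p = 0.0106). By ranks, rho was 0.90 for Igf2 (permutation adjusted p = 0.0669) and 0.76 for Igfbp2 (permutation adjusted p = 0.298), so neither passed by ranks. Without rats 9 and 3, r was 0.95 for Igf2 (exact permutation p = 0.00097) and 0.72 for Igfbp2 (exact permutation p = 0.0302), and neither passed after adjustment. Without rat 3, rat 8 or rat 9 alone, the Igfbp2 pair had an adjusted p of 0.106, 0.101 and 0.145. Without rats 4, 7 and 10, r was 0.99 for Igf2 and 0.95 for Igfbp2, with an adjusted p of 0.0698 for each over 7 rats.

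**Figure D3:**
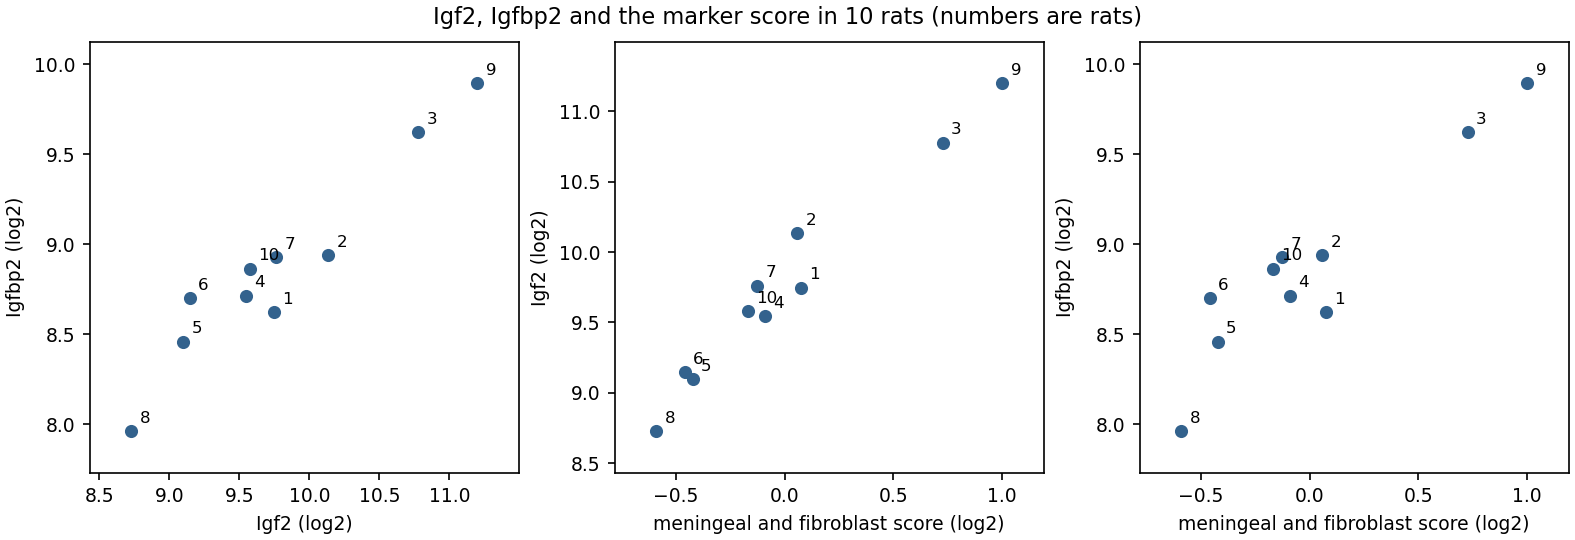
Log2 values of Igf2 against Igfbp2 (left), and of Igf2 (middle) and Igfbp2 (right) against the score for leptomeninges and fibroblasts (mean log2 difference from the average rat); each point is 1 of 10 rats, with its number. Rats 9 and 3 lie at the upper end of every panel, with scores of 1.00 and 0.73, and rat 8 lies at the lower end.

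Of the 22 leptomeningeal and fibroblast markers listed, 9 were measured and 12 were below the filter. In 8 of the 9, rats 3 and 9 had the highest values. The same 8 correlated above 0.8 with Igf2 and with Igfbp2, and the exception was Islr, whose span was 1.03-fold. The markers of highest r with Igf2 were the fibrillar collagen genes Col3a1 (r = 0.98), Col1a2 (0.97) and Col1a1 (0.96), and osteoglycin, Ogn (0.96). With Igfbp2 they were biglycan, Bgn (r = 0.94), Col3a1 (0.93), Col1a2 (0.93) and Ogn (0.92). Col1a2 spanned 8.21-fold over the rats, from 6.78 to 9.82. The part of meningeal or fibroblast tissue in the Igf2 and Igfbp2 values was not tested.

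Markers of the choroid plexus, another site of Igf2 and Igfbp2 transcripts, were at low values. Of its 13 markers (with ependyma), 11 had a probe set and 0 were above the filter. No value exceeded 3.96 in any rat. Their mean log2 value lay between 2.56 and 2.69, and it was 2.57 in rat 3 and 2.62 in rat 9. With the other 10 measures, Igf2 had r between -0.58 and 0.35 (smallest permutation adjusted p = 0.605) and Igfbp2 had r between -0.46 and 0.32 (smallest permutation adjusted p = 0.717). These included the spike-in level, with r = 0.05 for Igf2 and -0.07 for Igfbp2, and the 3′ minus 5′ control difference, with r = 0.15 and 0.13.

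No other pair of a member and a measure passed after adjustment. The smallest adjusted p among the other 86 pairs was 0.45. The largest correlations among them were Igfbp6 with the astrocyte score (r = -0.70), Igf2r with the myelin score (r = -0.68), Igf1r with the interneuron score (r = -0.68) and Igf2r with the striatal score (r = -0.67; rho = -0.88, permutation adjusted p = 0.0814). The rats of highest striatal score, 7 and 4, had Igf2r values of 9.09 and 9.06, and those of lowest score, 2 and 1, had 9.52 and 9.30.

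The genes whose values followed each member most closely across the 10 rats were listed by Pearson r among 8482 measured genes, as a description without a test. For Igf2 they were Col3a1, Col1a2, Ptgds (r = 0.97, prostaglandin D2 synthase), Igfbp2 and Col1a1, and 16 genes exceeded r = 0.9. For Igfbp2 they were Igf2, Sestd1 (0.96), Colec12 (0.95), Dab2 (0.95) and Bgn, and 12 genes exceeded 0.9. Ptgds spanned 3.81-fold and Colec12 5.97-fold. For Igf2r they were Slitrk1 (r = 0.95), the presynaptic scaffold gene Bsn (0.95), Ncbp3, Ash1l and Spire1. For Insr they were B3gnt2 (r = 0.95), Tmub1, Oxnad1, C1ql1 and Atg14.

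For Igf1r the list was Wdfy1 (r = 0.91), Nrp2, F8, LOC100912002 and Ubn2. For the main Igfbp5 probe set it was Dus1l (r = 0.95), Borcs8, Rrbp1, Sox4 and Smim27, and for Igfbp6 it was Ehmt1 (r = 0.85), Cuta, Ube4b, Pank2 and Pdxdc1. For Igf1 it was Mtap (r = 0.96), Trappc10, Myh8, Rimklb and Dhrs11, and 35 genes exceeded 0.9 although Igf1 spanned 1.16-fold. Trappc10, Rimklb and Dhrs11 spanned only 1.05-fold, 1.06-fold and 1.05-fold, and Mtap and Myh8 1.31-fold and 1.35-fold. All these correlations share the 10 arrays and their scaling.

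No member passed the adjusted threshold for any behaviour score. A slope gives the change in log2 value for a score higher by 1 SD, from limma across all 15521 measured probe sets with Benjamini-Hochberg adjustment. None of the probe sets, members included, had an adjusted p under 0.05 for startle, locomotion, sugar feeding, prepulse inhibition or plus maze, with limma's default or with its trend and robust options. The smallest adjusted p of a member in limma was 0.63. The share of all measured probe sets with an adjusted p under 0.05 was 0% for each score. At an unadjusted p under 0.05, the members' counts stand beside the share of all measured probe sets that passed the same limit. For startle 1 of the 14 member probe sets passed (7.14%), against 5.59% of all (867 probe sets). For prepulse inhibition 2 of 14 passed (14.3%), against 7.41% of all (1150 probe sets). For locomotion 0 of 14 passed, against 2.93% (455 probe sets), for sugar feeding 0 against 2.13% (330), and for plus maze 0 against 6.95% (1078).

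**Figure D4:**
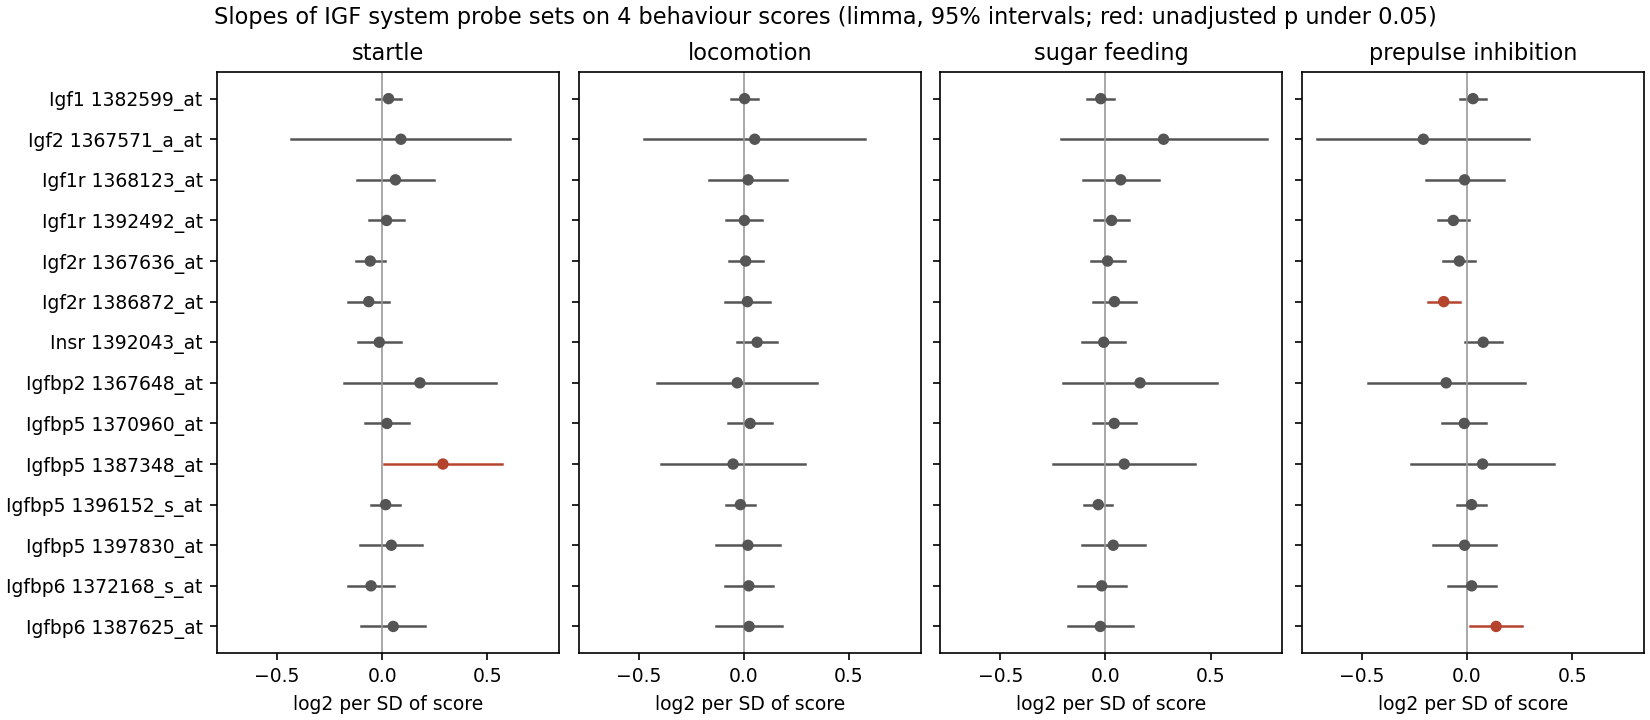
Slope (log2 per SD of the score, horizontal axis) with its 95% interval for each of the 14 measured probe sets, in 1 panel per score for startle, locomotion, sugar feeding and prepulse inhibition; red marks an unadjusted p under 0.05. Igf2 and Igfbp2 have the widest intervals, and 3 slopes are red: Igfbp5 1387348_at for startle and Igf2r 1386872_at and Igfbp6 1387625_at for prepulse inhibition.

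For startle, the slopes of the members ran from -0.06 to 0.29, 10 positive and 4 negative, with a median of 0.03 against -0.02 over all measured probe sets. The slope past the unadjusted limit was Igfbp5 1387348_at, at 0.29 ± 0.13 (SE, n = 10; limma unadjusted p = 0.0448, adjusted p = 0.808). Its highest values were in rats 7 and 9, the rats of highest startle score (943 and 927). The other 3 Igfbp5 probe sets had slopes of 0.02, 0.02 and 0.04, and without rat 7 the slope of 1387348_at was 0.15 (limma unadjusted p = 0.193). Its unadjusted p in limma was under 0.05 in 3 of the 10 fits that left out 1 rat, and ran from 0.0130 to 0.193. That p was not under 0.05 with the leptomeningeal and fibroblast score, or with the striatal score, as a covariate. Igf2 had a slope of 0.09 ± 0.23 and Igfbp2 of 0.18 ± 0.16 (SE). Without rat 9 the Igf2 slope was -0.14. Igf2r had slopes of -0.06 for each of its probe sets, with unadjusted p of 0.172 and 0.0996 in limma.

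For prepulse inhibition, member slopes ran from -0.21 to 0.14, 6 positive and 8 negative, and the median was -0.01, as over all measured probe sets. After quantile normalization 9 were positive and 5 negative. Igf2r 1386872_at had a slope of -0.11 ± 0.03 (SE, n = 10; limma unadjusted p = 0.00795, adjusted p = 0.63). The rats with the 3 lowest scores, rats 1, 2 and 3 (6.80, 10.7 and 18.4), had its 3 highest values. The same rats had low striatal scores of -0.72, -0.78 and -0.65, against a median of -0.36. Rats 9 and 6 also had low striatal scores, -0.66 and -0.57, with prepulse inhibition scores of 37.4 and 25.4. Over the 21 alternatives, which included the striatal score as a covariate, the slope lay between -0.14 and -0.07. The unadjusted p stayed under 0.05 in each of the 10 fits that left out 1 rat, between 0.00534 and 0.0368, and the adjusted p was 0.356 or higher under every alternative run. The other Igf2r probe set had a slope of -0.04, and 0.01 without rat 2.

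Igfbp6 1387625_at had a slope of 0.14 ± 0.06 on prepulse inhibition (SE, n = 10; limma unadjusted p = 0.0311, adjusted p = 0.635). It was high in rats 9 and 4, with scores of 37.4 and 42.5. Rats 5 and 8, with scores of 39.4 and 40.2, had values of 6.75 and 6.91, below or near the middle of the range. Without rat 1, 4 or 9 its unadjusted p in limma was 0.102, 0.115 and 0.057. That p was also not under 0.05 with the striatal score as a covariate and all rats. The other Igfbp6 probe set had a slope of 0.02. Insr had a slope of 0.08 (unadjusted p = 0.0804 in limma) and the main Igf1r probe set of -0.06 (unadjusted p = 0.0768 in limma). Igf2 had -0.21 ± 0.23 and Igfbp2 -0.10 ± 0.17 (SE).

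**Figure D5:**
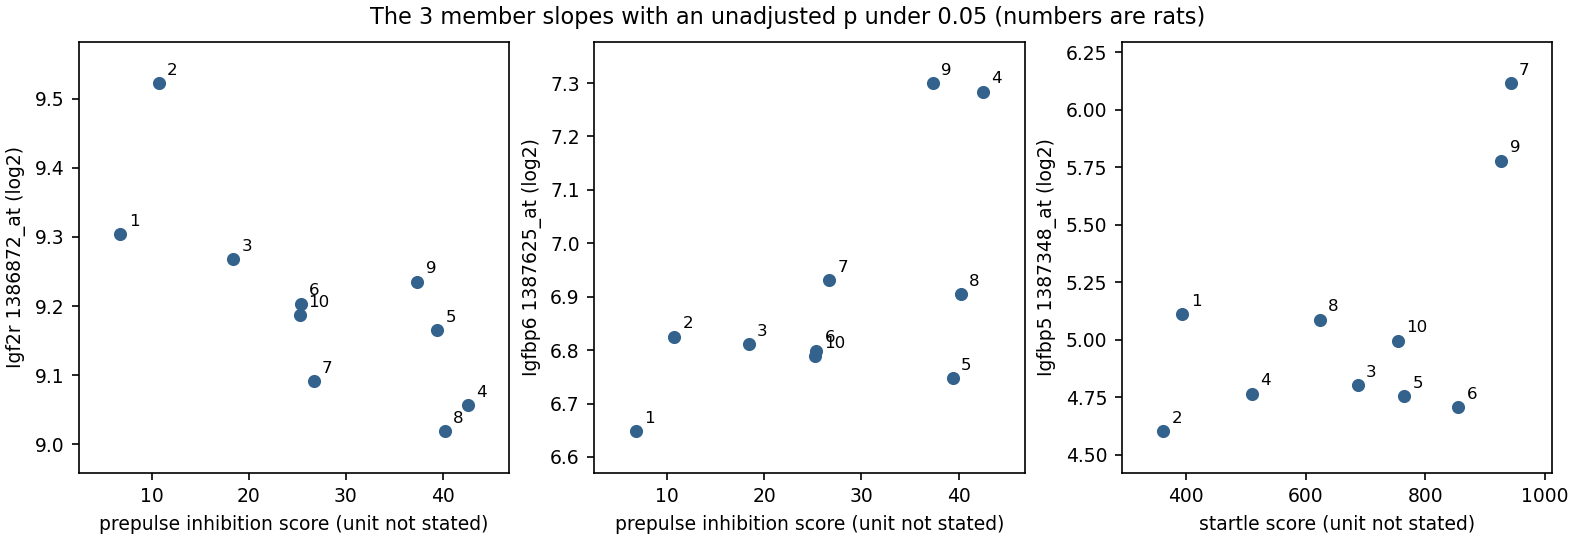
Log2 value (vertical axis) against behaviour score (horizontal axis, unit not stated) for the 3 member slopes with an unadjusted p under 0.05: Igf2r 1386872_at and Igfbp6 1387625_at against prepulse inhibition and Igfbp5 1387348_at against startle; points are 10 numbered rats. Rats 1, 2 and 3 combine low prepulse inhibition with high Igf2r, rats 4 and 9 stand above the others for Igfbp6, and rats 7 and 9 for Igfbp5.

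For locomotion, member slopes ran from -0.05 to 0.06, 11 positive and 3 negative. The split was 7 and 7 after quantile normalization and 8 and 6 when each array was centred by its median. Insr had the largest slope, 0.06, and without rat 4 it was -0.02. Igf2 had 0.05 ± 0.24 and Igfbp2 -0.03 ± 0.17 (SE).

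For sugar feeding, member slopes ran from -0.03 to 0.28, 9 positive and 5 negative. The largest were Igf2 at 0.28 ± 0.22 and Igfbp2 at 0.16 ± 0.16 (SE, n = 10; limma unadjusted p = 0.239 and 0.339). The 95% interval for Igf2 ran from -0.21 to 0.77. Rat 9 had the highest Igf2 and a low sugar feeding score of 0.65. Without that rat the slopes were 0.47 for Igf2 (limma unadjusted p = 0.00464, adjusted p = 0.999) and 0.30 for Igfbp2 (limma unadjusted p = 0.0215). Of the 10 fits that left out 1 rat, only this 1 had an unadjusted p under 0.05 for either gene. Over the 10 fits the limma unadjusted p reached 0.491 for Igf2 and 0.736 for Igfbp2, and the lowest slopes were 0.16 and 0.05. With the leptomeningeal and fibroblast score as a covariate and all rats, the slopes of Igf2 and Igfbp2 were 0.05 and 0.01.

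For the plus maze, scored in 7 rats that did not include rats 3, 6 and 9, member slopes ran from -0.20 to 0.07, 6 positive and 8 negative. Igf2 had -0.20 ± 0.16 and Igfbp2 -0.10 ± 0.13 (SE). Without rat 8 they were -0.29 and -0.17, with a limma unadjusted p of 0.00814 and 0.00822 and an adjusted p of 0.809 for each. Among the 7 fits that left out 1 rat, only this 1 had an unadjusted p under 0.05 for either gene. Rat 5 had the highest plus maze score, 60.3, and the next was 20.2 in rat 4. Without rat 5 the slopes were -0.08 ± 0.19 for Igf2 and -0.07 ± 0.15 for Igfbp2 (SE).

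The covariate also moved the Igf2 and Igfbp2 slopes for the other scores. For startle the Igf2 slope was 0.01 and the Igfbp2 slope 0.13 ± 0.05 (SE, n = 10; limma unadjusted p = 0.0417, adjusted p = 0.785) with it. Igfbp2 was the 1 of 14 member probe sets with an unadjusted p under 0.05 in that fit, against 925 of all 15521. For prepulse inhibition the Igf2 slope was -0.06 and the Igfbp2 slope was close to 0. The standard error of the Igf2 slope for startle was 0.23 without the covariate and 0.05 with it.

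The other genes of the pathway were taken from a list of 62, among them insulin, proteases that free IGFs, receptor adaptors and the kinases downstream. Of these, 36 were measured, 17 were below the filter and 9 had no probe set of that single symbol. Ins1, Ins2, Insrr, Ghr, Irs1 and H19, the noncoding neighbour of Igf2 in the imprinted domain, were below the filter. None of the 36 had an adjusted p under 0.05 in limma for any score.

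At an unadjusted p under 0.05, locomotion had 4 positive slopes and 0 negative (11.1% of 36, against 2.93% of all measured probe sets in either direction and 2.31% with a positive slope). After quantile normalization the list had 2 positive and 1 negative for locomotion, and over all measured probe sets the split went from 359 positive and 96 negative to 181 and 280. Startle had 1 (2.78%, against 5.59%), sugar feeding 0 (against 2.13%), prepulse inhibition 3 (8.33%, against 7.41%) and plus maze 4, all negative (11.1%, against 6.95% in either direction). Over all measured probe sets, 891 of the 1078 that passed for the plus maze also had a negative slope. Without rat 5, which had the highest plus maze score, 358 passed, 265 with a positive slope and 93 with a negative one. For startle the split was 3 positive and 1 negative after quantile normalization, in place of 0 and 1, and for prepulse inhibition it was 3 and 0, in place of 2 and 1. With arrays centred by their medians the counts were 3 and 0 for locomotion and 1 and 0 for prepulse inhibition. Rictor, a subunit of mTOR complex 2, had the smallest p of the list for startle, locomotion and sugar feeding. Its log2 values ran from 9.31 to 9.67, with a slope of -0.11 ± 0.03 on startle (SE, n = 10; limma unadjusted p = 0.00266, adjusted p = 0.808) and 0.10 ± 0.03 on locomotion (SE, n = 10; limma unadjusted p = 0.00586, adjusted p = 0.9998). The same direction on locomotion was shown by Tsc1, an inhibitor of mTOR complex 1, at 0.09 and by the insulin receptor substrate Irs2 at 0.10. The rats of lowest startle score, rats 2, 1 and 4 (363, 394 and 510), were those of highest locomotion score. Slopes on these scores are therefore not independent of each other.

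Foxo4, a transcription factor restrained by AKT, had a slope of 0.13 on startle (unadjusted p = 0.0699 in limma), where Irs2 had -0.08 (unadjusted p = 0.0793 in limma). For sugar feeding, Rictor had 0.07, Tsc1 0.08 and Ide, the insulin-degrading enzyme, 0.08, and none of these passed the unadjusted limit. For prepulse inhibition, Ide had a slope of -0.09 and Foxo4 of 0.15. Adamts1, a metalloprotease whose mean log2 value of 4.18 was close to the filter, had 0.06. For the plus maze, over 7 rats, Pdpk1, the kinase that activates AKT, had -0.13 ± 0.03 (SE; limma unadjusted p = 0.00688, adjusted p = 0.652). Grb14, an adaptor that restrains the insulin receptor, had -0.10 and Htra1, a protease that cleaves IGF binding proteins, had -0.11. Rat 5, with the highest plus maze score, had the lowest value of all rats for Pdpk1 (11.79), Grb14 (7.91) and Htra1 (9.57). How far the slopes of these genes rest on that rat was not tested.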

How the data were processed

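RNA from the prefrontal cortex of 10 rats was hybridised to 1 Affymetrix array each. The deposited values are on the log2 scale and were made by the authors with GCRMA in R 2.6.2, per the submitters' processing notes. GCRMA is a method that corrects background by probe sequence and normalizes between arrays. No annotation build was given in the sources used here. Gene names came from the platform annotation, and all 10 member symbols matched RefSeq.

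The upper 50% of the 31042 non-control probe sets by mean were kept (57 controls left out). Slopes on each score, scaled to SD 1, came from limma 3.58.1 in R 4.3.3 with p-values adjusted by Benjamini-Hochberg across the 15521 kept, called under 0.05. Correlations over rats used two-sided permutation tests (NumPy 2.4.6, with ranks from SciPy 1.17.1, 100000 resamples, exact under 10 rats), adjusted within each family. The main probe set of a gene was that of highest mean. The fits were tested on simulated data. The number of arrays limits the precision. The labels number the rats as individuals; with 1 array per rat, array and rat cannot be told apart.

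The members and lists were chosen with earlier results of these data known. Named were all members, per score the 3 pathway genes of smallest unadjusted p, the 5 genes most like each member, and the 4 markers of highest r with a member. Alternatives changed the filter, scaling, test options, score ranks, covariates and rats used.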

Additional observations from a re-analysis of the deposited data

Results flagged for a closer look

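Within each of 35 sets of 10 values (24 member probe sets and 11 marker scores and control measures), the gap between the most extreme rat and the next was set against the whole range, and 6 sets exceeded the critical share of 0.466. Chance gives about 1 in 20 sets. Insr 1392043_at was 6.11 in rat 4, and the next rat had 5.80. Igf2r 1367636_at was 7.52 in rat 2, and the next rat had 7.30. Igf1 1388469_at was 4.03 in rat 9, and Igfbp3 1367652_at was 2.63 in rat 3, both below the filter on low values. The score for pericytes and smooth muscle was lowest in rat 7, at -0.486, and the score for excitatory neurons was lowest in the same rat, at -0.216. Rat 7 also had the highest striatal score, 1.78, and the highest Igfbp5 1387348_at. Whether these go together was not tested.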

How the results depend on the processing

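No member slope had an adjusted p under 0.05 in any of the 1400 values from alternative settings of the 70 slopes (smallest 0.325), and 118 of these values had the opposite sign; 24 slopes kept their sign throughout. For each score the number of probe sets past an adjusted p of 0.05 stayed at 0, except 1 for locomotion without rats 4, 7 and 10, which was no member. Leaving out 1 rat at a time gave 0 to 0 for every score.

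The count of member pairs, 1, fell to 0 without the 2 rats farthest from the median and without rats 3 and 9, with r = 0.849 for Igf2 and Igfbp2 in both. The count of member and measure pairs, 2, became 0 by Spearman rho, without the 2 farthest rats, without rats 3 and 9 and without rats 4, 7 and 10, and 1 to 3 with 1 rat left out. Igf2 with the leptomeningeal score then had rho = 0.903, r = 0.947 (both sets of rats 3 and 9) and r = 0.987; Igfbp2 had rho = 0.758, r = 0.718 (both) and r = 0.948, and 0.880 to 0.954 with 1 rat left out.

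Of the 70 slopes, 46 changed sign under at least 1 alternative, most often Igf1r 1368123_at on prepulse inhibition (8 of 21 alternatives). Of the slopes given singly in the report, these changed sign, and the cause was not tested. Without rats 3 and 9, startle slopes were -0.177 for Igf2 and -0.0116 for Igfbp5 1370960_at, and the locomotion slope of Igfbp2 was 0.0902. With the leptomeningeal score as covariate, Igf2 had -0.00935 on locomotion, and Igfbp2 had 0.00497 on prepulse inhibition and 0.00926 on plus maze. With 4 scores in 1 model, locomotion slopes were -0.00827 for Igf2 and 0.0115 for Igfbp2, and Igf2r 1367636_at had 0.00275 on prepulse inhibition. On score ranks Igfbp2 had 0.00689 on locomotion, and without rats 4, 7 and 10 Insr had -0.00781. With 1 rat left out, startle slopes ran from -0.139 to 0.198 for Igf2 and -0.0112 to 0.0680 for Igfbp5 1370960_at. Locomotion slopes ran from -0.0630 to 0.222 for Igf2, -0.140 to 0.0825 for Igfbp2 and -0.0158 to 0.0781 for Insr. Prepulse inhibition slopes ran from -0.222 to 0.0182 for Igfbp2 and -0.0538 to 0.00866 for Igf2r 1367636_at.

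No paired analysis was possible because the rats form 1 group. The plus maze had no fit without rats 3 and 9, which lack that score, or with the 4 scores. Values near the filter, such as Igf1 and the faint Igfbp5 probe sets, are close to background and limit what can be read from them.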
